A study of Mus musculus with 24 samples.

Results

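Almost all mitochondrial proteins are made in the cytosol and carried into the organelle by a set of translocases. The TOM complex is the common entry gate of the outer membrane, and behind it the SAM complex inserts barrel-shaped outer membrane proteins, small TIM chaperones and a disulfide relay serve the intermembrane space, the TIM22 complex inserts carriers into the inner membrane, and the TIM23 complex with its ATP-driven motor pulls precursors with a presequence into the matrix. T cells that are activated enlarge and remodel their mitochondria, so the genes of this machinery are of interest in cells that differ in their mtDNA.

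The 34 genes examined encode the subunits of these complexes and their close partners and were selected by name, not by their counts, from the 55414 genes listed in the count table. They comprised 8 genes of the outer membrane entry gate, the cytosolic co-chaperone Tomm34, 3 genes of sorting and assembly, 2 of the intermembrane space relay, 6 small TIM chaperones, 2 genes of TIM22, 5 of TIM23, 6 of the motor, and Timmdc1, a TIM17-family protein known for complex I assembly. All 34 were found by gene identifier in the count table, and 32 passed the filter on low counts. Chchd4, the oxidoreductase of the relay, and Timm8a1, a small TIM chaperone, did not pass it and were not tested, with 93 and 122 unique molecular identifier (UMI) counts over all libraries.

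Splenic Tconv CD4+ cells (CD4+ CD25-) came from conplastic mice that carry C57BL/6J nuclear DNA and either C57BL/6J mtDNA (mtDNA-B6, labelled WT) or NZB mtDNA (mtDNA-NZB). The cells were at rest (RES) or had been activated (ACT) with CD3/CD28 beads, for 72 h by the methods of the study, and each of the 4 groups held 6 libraries. The age and sex of the mice behind these libraries are not given in the sources used here beyond a statement that most experiments used young adult males, nor is the time that resting cells spent in culture. Cells were separated with magnetic beads, and bulk MARS-seq counted molecules at the 3′ end of polyadenylated RNA. The labels do not say which libraries came from separate mice, so a p-value measures the spread between libraries, which may in part be technical.

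Libraries held from 51409 to 6449395 UMI counts. The shallowest, resting mtDNA-NZB replicate 2, had a single count worth 16.9 CPM (counts scaled to a common library total), and a gene listed at 0 there may have had up to 50.8 CPM (3 counts, counting error only). It is 1 of 3 libraries, with resting replicate 6 and activated replicate 6 of mtDNA-NZB, that the study's own means did not include, and each comparison was also made over the other 21 libraries. All 8 T cell identity genes were detected in every group, and Cd4 was at a median of 629 CPM in resting and 560 CPM in activated mtDNA-B6 libraries and at 648 and 583 CPM in those of mtDNA-NZB. The libraries also held RNA of other cells. The summed level of 6 myeloid markers ranged from 455 to 3030 CPM over resting and from 7.43 to 106 CPM over activated libraries, 7 neutrophil markers ranged from 297 to 13200 CPM and from 6.19 to 114 CPM, and all 13 of these markers fell on activation in both haplotypes. Of 6 erythroid markers, 5 fell in both haplotypes, and their sum ranged from 83.7 to 6610 CPM at rest and from 16.2 to 161 CPM after activation. Markers of CD8 T cells, both of which rose in both haplotypes, went the other way, from 16.9 to 142 CPM at rest and from 82.0 to 534 CPM after activation, as did platelet markers, of which 2 of 2 tested rose in mtDNA-B6 and 1 in mtDNA-NZB (7.28 to 50.8 CPM and 17.3 to 487 CPM). B cell markers were at 226 to 1260 CPM at rest and 84.8 to 1070 CPM after activation and NK cell markers at 87.1 to 225 CPM and 89.1 to 674 CPM. Resting medians in mtDNA-B6 and mtDNA-NZB were 2240 and 527 CPM for neutrophil, 1290 and 203 CPM for erythroid and 1500 and 836 CPM for myeloid markers. They went the other way for B cell (448 and 592 CPM) and platelet markers (14.6 and 16.4 CPM). No tested marker differed between haplotypes in the same state at an adjusted p of at most 0.05. The part of these cells in the values below, between states or haplotypes, was not tested. In bulk RNA fewer cells of a type and less RNA per cell cannot be told apart.

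The first question was how activation changed the import genes within each haplotype. In mtDNA-B6 cells 10 of the 32 tested members rose and 1 fell at an adjusted p of at most 0.05 (edgeR's quasi-likelihood test, Benjamini-Hochberg over all genes), where 22.4% of the 10566 genes tested rose and 24.5% fell. In mtDNA-NZB cells 22 of 32 rose and 1 fell, against 25.2% of all genes that rose and 28.4% that fell. The median log2 fold change of the tested members was 0.26 in mtDNA-B6 and 0.58 in mtDNA-NZB, and that of all genes was -0.03 and -0.06. Most changes were small. A log2 fold change of at least 1 with an adjusted p of at most 0.05 was reached by Dnajc15 alone in mtDNA-B6, where 7.06% of all genes rose that far, and by Dnajc15 and Mtx2 in mtDNA-NZB, where 9.46% did.

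Rises that passed the test in both haplotypes were those of Dnajc15, Gfer, Pam16, Timm13, Timm23, Timm50, Timm8b, Tomm22 and Tomm40, which is 9 of the 32. Hspa9 rose in mtDNA-B6 and was not called in mtDNA-NZB, and 13 members rose in mtDNA-NZB and were not called in mtDNA-B6. A further 8 members, Grpel1, Samm50, Timm17a, Timm29, Timmdc1, Tomm20, Tomm40l and Tomm70a, passed the test in neither haplotype. Of these, Timm17a was at 0.39 ± 0.17 in mtDNA-B6 and 0.33 ± 0.18 in mtDNA-NZB (adjusted p = 0.0602 and 0.12). Over the 21 libraries it was called in both, at 0.39 ± 0.15 and 0.44 ± 0.18 (adjusted p = 0.0317 and 0.0398). The responses themselves were compared with an interaction term, which is given after the single comparisons.

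**Figure D1:**
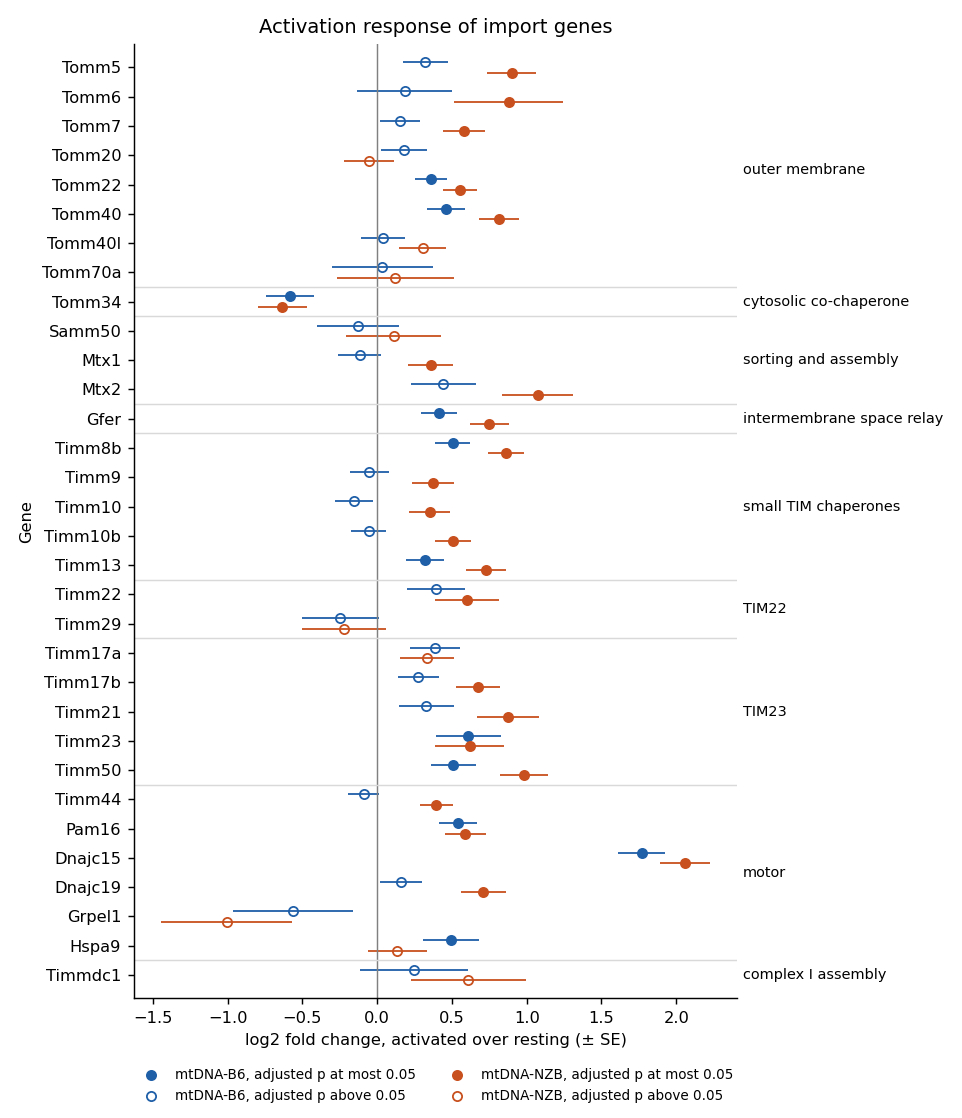
log2 fold change of the 32 tested import genes, activated over resting, in mtDNA-B6 (blue) and mtDNA-NZB (orange), with bars for 1 SE and filled points for an adjusted p of at most 0.05. Genes are ordered by complex. Dnajc15 lies to the right of all others at 1.77 and 2.06, Tomm34 is the only filled point left of 0, and most other filled points lie between 0.3 and 1.0.

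The largest change was in the motor. Dnajc15, also known as MCJ, is a J protein of the inner membrane that is related to the motor subunit Dnajc19 and is known as a regulator of complex I. Its level ranged from 74.1 to 93.2 CPM (median 78.3) in the 6 resting and from 261 to 303 CPM (median 275) in the 6 activated mtDNA-B6 libraries. In mtDNA-NZB it ranged from 33.9 to 81.9 CPM (median 61.1) at rest and from 172 to 426 CPM (median 249) after activation. In both haplotypes every activated library lay above every resting one. The log2 fold change was 1.77 ± 0.16 (SE, adjusted p = 1.63e-09) in mtDNA-B6, a 3.41-fold rise, and 2.06 ± 0.17 (adjusted p = 3.28e-10) in mtDNA-NZB, a 4.16-fold rise.

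The other motor genes moved less. Pam16, the J-like partner that holds the J protein at the channel, rose from a median of 33.7 to 48.6 CPM in mtDNA-B6 (log2 fold change 0.54 ± 0.13, adjusted p = 0.00129) and from 35.9 to 53.4 CPM in mtDNA-NZB (0.59 ± 0.14, adjusted p = 0.000799), with no overlap between resting and activated libraries in either. Dnajc19, the J protein that stimulates the motor's ATPase, rose in mtDNA-NZB (0.71 ± 0.15, adjusted p = 0.000363), where it lay between 28.9 and 49.5 CPM (median 36.1) at rest and between 46.3 and 79.6 CPM (median 60.2) after activation. In mtDNA-B6 its value was 0.16 ± 0.14 (adjusted p = 0.371), from 40.4 to 58.0 CPM (median 52.1) at rest and from 50.3 to 66.0 CPM (median 55.2) activated.

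Timm44, which tethers the motor to the channel, rose in mtDNA-NZB by 0.40 ± 0.11 on the log2 scale (adjusted p = 0.00449) and was at -0.09 ± 0.11 (adjusted p = 0.501) in mtDNA-B6. Hspa9, or mortalin, is the mitochondrial Hsp70 that does the pulling. Its log2 fold change was 0.49 ± 0.19 (adjusted p = 0.0339) in mtDNA-B6 and 0.13 ± 0.20 (adjusted p = 0.584) in mtDNA-NZB, and the former was not called with DESeq2, in the second count table or with the library set as a term (largest adjusted p = 0.105). Grpel1, the exchange factor that resets Hspa9, had 239 counts in all and a log2 fold change of -0.56 ± 0.40 (adjusted p = 0.256) in mtDNA-B6 and -1.005 ± 0.44 (adjusted p = 0.0556) in mtDNA-NZB.

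**Figure D2:**
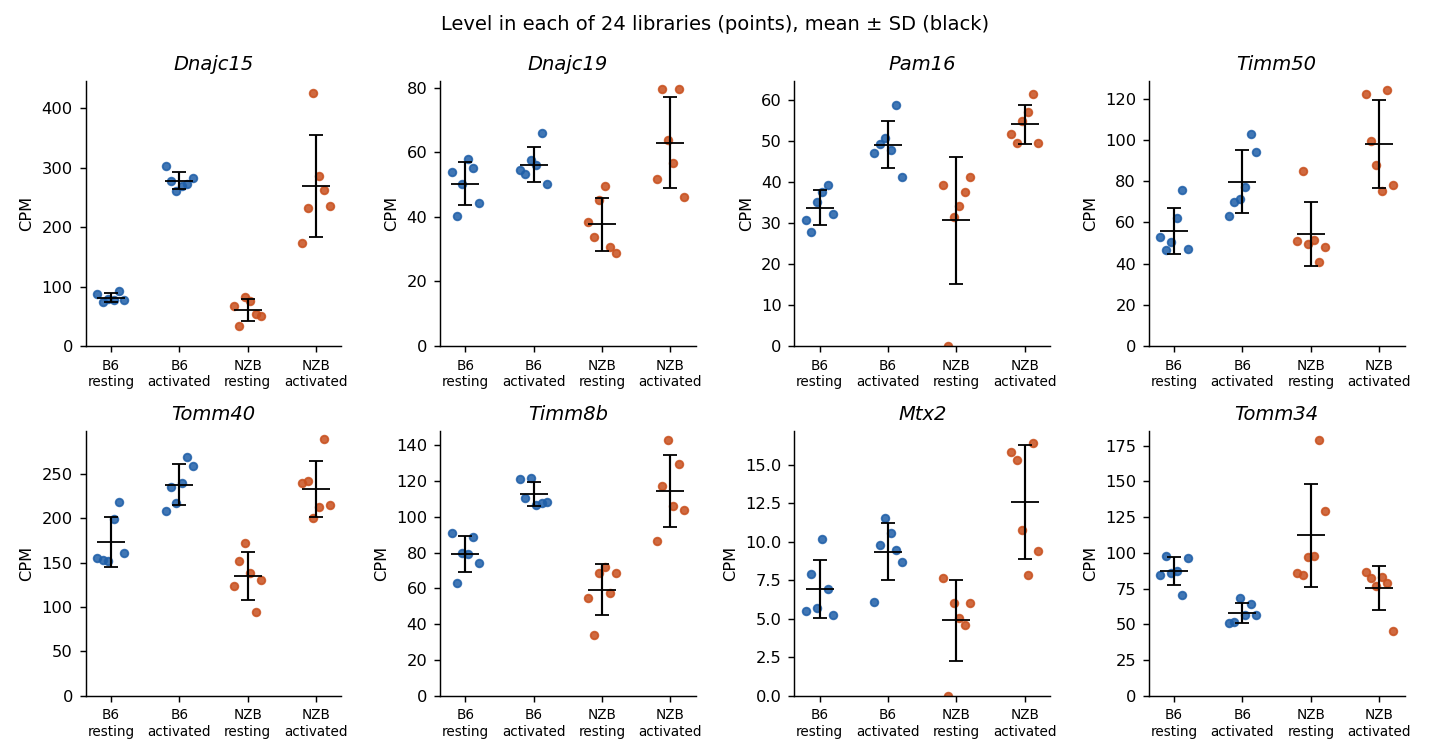
Level in CPM of 8 import genes in each of the 24 libraries, with the mean and SD of each group in black and each y axis starting at 0. Activated libraries lie above resting ones without overlap for Dnajc15, Pam16 and Timm8b in both haplotypes and for Tomm40 and Mtx2 in mtDNA-NZB, and Tomm34 goes the other way, without overlap in mtDNA-B6. The 0 values of Pam16 and Mtx2 are in the shallowest library.

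At the outer membrane, Tomm40, the channel of the entry gate, ranged from 152 to 219 CPM (median 158) at rest and from 208 to 269 CPM (median 238) after activation in mtDNA-B6. In mtDNA-NZB it ranged from 94.0 to 172 CPM (median 134) and from 201 to 289 CPM (median 228), and there the groups did not overlap. It rose by 0.46 ± 0.13 (adjusted p = 0.00435) and 0.81 ± 0.13 (adjusted p = 1.46e-05) on the log2 scale, and the former was lost with the library set as a term (0.34 ± 0.16, adjusted p = 0.104). Tomm22, the receptor that organises the complex, rose by 0.36 ± 0.11 (adjusted p = 0.00822) and 0.55 ± 0.11 (adjusted p = 0.00018).

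The small subunits Tomm5, Tomm6 and Tomm7, which stabilise the gate, rose in mtDNA-NZB by 0.90 ± 0.16, 0.88 ± 0.37 and 0.58 ± 0.14 on the log2 scale and had values of 0.32, 0.18 and 0.15 in mtDNA-B6 (smallest adjusted p = 0.0827). With the library set as a term Tomm5 was called in mtDNA-B6 too (0.56 ± 0.18, adjusted p = 0.0187), also over the 21 libraries. The rise of Tomm6 rested on 215 counts in all libraries and was not called over the 21 libraries, nor in 7 other alternatives. The 2 receptors that recognise precursors, Tomm20 for presequences and Tomm70a for carriers, were not called in either haplotype, with log2 fold changes from -0.06 to 0.18. Tomm40l, a close relative of Tomm40, was at 0.04 ± 0.15 and 0.31 ± 0.16 (adjusted p = 0.841 and 0.154).

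Tomm34 was the only member that fell. It is a cytosolic co-chaperone that binds Hsp70 and Hsp90 and accompanies precursors to the mitochondrial surface. It ranged from 70.7 to 97.6 CPM (median 86.7) at rest and from 51.2 to 68.1 CPM (median 56.4) after activation in mtDNA-B6, with no overlap. In mtDNA-NZB the range was 84.7 to 179 CPM (median 97.3) at rest and 45.0 to 86.3 CPM (median 80.7) activated, and the groups overlapped. The log2 fold change was -0.58 ± 0.16 (adjusted p = 0.00414) and -0.63 ± 0.17 (adjusted p = 0.00235). The former was lost with the library set as a term (adjusted p = 0.224). The latter was lost with a replicate block by the number in the labels (adjusted p = 0.0682, and 0.343 over the 21 libraries).

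In the sorting and assembly complex, Mtx2, a metaxin, ranged from 0 to 7.68 CPM (median 5.53) at rest and from 7.84 to 16.4 CPM (median 13.1) after activation in mtDNA-NZB. The log2 fold change there was 1.07 ± 0.24 (adjusted p = 0.000478). In mtDNA-B6 Mtx2 ranged from 5.27 to 10.2 CPM (median 6.32) and from 6.11 to 11.6 CPM (median 9.63), with a value of 0.44 ± 0.22 (adjusted p = 0.0971). Mtx1, the other metaxin, rose in mtDNA-NZB by 0.36 ± 0.15 with an adjusted p of 0.0497, a call that held in only 1 of 12 alternative settings, and was at -0.12 ± 0.14 (adjusted p = 0.533) in mtDNA-B6. Samm50, the barrel at the core of the complex, was at -0.13 and 0.11 (adjusted p = 0.768 and 0.799), and its sign in mtDNA-NZB turned under several settings.

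In the intermembrane space, Gfer, the sulfhydryl oxidase that recharges the relay, rose by 0.41 ± 0.12 (adjusted p = 0.00673) in mtDNA-B6 and by 0.75 ± 0.13 (adjusted p = 2.57e-05) in mtDNA-NZB on the log2 scale, and the call in mtDNA-B6 was lost with the library set as a term (adjusted p = 0.0804). Its partner Chchd4 was between 0 and 2.05 CPM in all libraries. The small TIM chaperones escort hydrophobic precursors across this space, and all 5 that could be tested rose in mtDNA-NZB, with a range of 0.35 to 0.86. In mtDNA-B6 Timm8b and Timm13 rose, and Timm9, Timm10 and Timm10b had values of -0.05, -0.15 and -0.06 (smallest adjusted p = 0.335). The calls of Timm9 and Timm10 in mtDNA-NZB held in only 5 and 4 of 12 other settings and were each lost without any 1 of 5 libraries, and that of Timm13 in mtDNA-B6 held in 8 of 12 and was lost without any 1 of 6 libraries (largest adjusted p = 0.482, 0.381 and 0.120).

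Timm8b had the largest rise of the 5 in both haplotypes, and in mtDNA-B6 it was not typical of them (median -0.05). It ranged from 62.9 to 90.8 CPM (median 79.7) at rest and from 107 to 122 CPM (median 109) after activation in mtDNA-B6, and from 33.9 to 71.9 CPM (median 63.0) and 86.3 to 143 CPM (median 112) in mtDNA-NZB. Resting and activated libraries did not overlap in either haplotype. The log2 fold change was 0.50 ± 0.11 (adjusted p = 0.000809) in mtDNA-B6 and 0.86 ± 0.12 (adjusted p = 2.05e-06) in mtDNA-NZB.

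At the inner membrane, Timm50, the receptor of TIM23, rose by 0.51 ± 0.15 (adjusted p = 0.00712) in mtDNA-B6 and by 0.98 ± 0.16 (adjusted p = 1.54e-05) in mtDNA-NZB. Timm23, the channel, rose by 0.61 ± 0.21 (adjusted p = 0.0218) and 0.62 ± 0.23 (adjusted p = 0.0253). These calls held in 11 and 10 of 12 other settings (largest adjusted p = 0.0552 and 0.0641). The former was lost with the replicate block by label number, the latter with DESeq2 and in a fit of 12 libraries. Timm21, which links TIM23 to the respiratory chain, and Timm17b, a channel subunit, rose in mtDNA-NZB by 0.88 ± 0.21 and 0.67 ± 0.14 and had values of 0.33 and 0.27 in mtDNA-B6 (adjusted p = 0.151 and 0.101). The call of Timm21 in mtDNA-NZB held in 9 of 12 other settings (largest adjusted p = 0.0681). It was lost in the second count table and with the replicate block by label number. Timm17b was called in mtDNA-B6 in 4 of 12 other settings, among them the 21 libraries (0.28 ± 0.10, adjusted p = 0.0223). In TIM22, the channel Timm22 rose in mtDNA-NZB by 0.60 ± 0.21 (adjusted p = 0.0204) and was at 0.39 ± 0.19 (adjusted p = 0.0987) in mtDNA-B6. The call in mtDNA-NZB held in 7 of 12 other settings and was lost with DESeq2 and in the second count table (largest adjusted p = 0.18). Timm29 was at -0.25 and -0.22 (adjusted p = 0.446 and 0.523). Timmdc1, with 264 counts in all, was at 0.24 ± 0.36 and 0.61 ± 0.39 (adjusted p = 0.601 and 0.188).

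The summed CPM of all 34 members gave the size of these changes together. It was 1961 ± 149 (SD, n = 6) at rest and 2487 ± 114 (n = 6) after activation in mtDNA-B6, a ratio of 1.27, and 1709 ± 178 and 2697 ± 306 in mtDNA-NZB, a ratio of 1.58. In both haplotypes the lowest activated library (2400 and 2333 CPM) lay above the highest resting one (2151 and 1826 CPM). By part, the ratio was 1.73 and 1.92 for the motor, where Dnajc15 gave most of the gain, 1.33 and 1.77 for TIM23, 1.22 and 1.58 for the outer membrane, 1.14 and 1.54 for the small TIM chaperones, and 0.96 and 1.30 for sorting and assembly.

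Counts of the second table per UMI count, read here as reads per UMI, divided the libraries at the widest gaps into 3 sets of 8. The labels name no batch, so what the sets stand for is not known. State and haplotype were unevenly spread over them. At rest the sets held 0, 4 and 2 libraries of mtDNA-B6 and 1, 1 and 4 of mtDNA-NZB. After activation they held 5, 1 and 0 of mtDNA-B6 and 2, 2 and 2 of mtDNA-NZB. In mtDNA-B6, 5 of 6 activated libraries were in the set that held no resting one, and a comparison within a set could be made only between 4 resting libraries and 1 activated library. There the summed CPM of the members was 1.40 times higher in the activated library, and the difference in log2 CPM was 1.78 for Dnajc15 and -0.46 for Tomm34. In mtDNA-NZB the 3 sets, with 1, 1 and 4 resting and 2 activated libraries each, gave ratios of 1.47, 1.54 and 1.64, and Dnajc15 was at 1.59, 1.91 and 2.39. Tomm34 was at -0.69, -0.055 and -0.53. These within-set values rest on arms of as few as 1 library and have no test. With the set as a term, 8 members rose and 0 fell in mtDNA-B6, where 16.3% of all genes rose and 17.1% fell. There 12 members were at an unadjusted p below 0.05, all higher (37.5%, against 43.0% of all genes in either direction). In mtDNA-NZB 19 rose and 1 fell, against 24.4% and 26.6% of all genes. In mtDNA-B6 DESeq2 without that term called 8 rises and 1 fall, where 8.55% of the 25030 genes with a count rose and 10.7% fell.

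Ratios of related genes were taken within each library. The prior count of 2 added before the log pulls them towards 0 where counts are few, as in the shallowest library. The ratio of Dnajc19 to Dnajc15 was -0.69 ± 0.16 (SD, n = 6) at rest and -2.29 ± 0.17 after activation in mtDNA-B6 on the log2 scale, and -0.64 ± 0.33 and -2.06 ± 0.47 in mtDNA-NZB. These shifts of -1.60 and -1.42 separated all resting from all activated libraries, with the smallest p that 6 against 6 allows (exact two-sided permutation test, p = 0.00216, adjusted p = 0.00866 over the 8 tests of 4 pairs in 2 haplotypes). The ratio of Tomm40 to Tomm40l shifted by 0.42 in mtDNA-B6 (exact permutation test, adjusted p = 0.0115) and by 0.40 in mtDNA-NZB (adjusted p = 0.104, exact permutation test), where its SD was larger (0.35 and 0.37 against 0.17 and 0.17).

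The remaining pairs did not pass. Timm17a and Timm17b are alternative subunits of the TIM23 channel, and their ratio shifted by 0.08 in mtDNA-B6 and by -0.60 in mtDNA-NZB (exact permutation test, adjusted p = 0.420 and 0.0554). Over the 21 libraries the latter was -0.36 (exact permutation test, adjusted p = 0.163), and the shallowest library, which it leaves out, had no count of either gene. For Timm8a1 to Timm8b, where Timm8a1 was at 0 to 3.21 CPM, the shifts were -0.62 and -0.75 (exact permutation test, adjusted p = 0.0519 and 0.0750). The value in mtDNA-NZB moved with the settings, to -0.46 with a prior count of 0.5 (exact permutation test, adjusted p = 0.433), -0.27 in the second count table (adjusted p = 0.613, exact permutation test) and -1.02 over the 21 libraries (exact permutation test, adjusted p = 0.106).

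**Figure D3:**
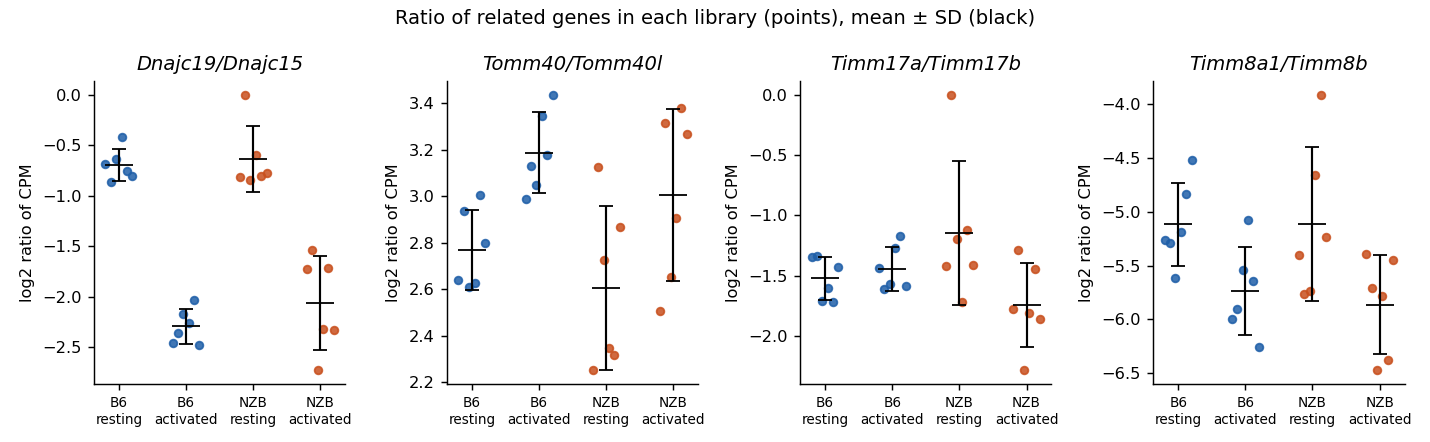
log2 ratio of CPM (prior count of 2) of 4 pairs of related import genes in each library, with the mean and SD of each group in black. The ratio of Dnajc19 to Dnajc15 lies at -0.87 or above in every resting library and at -1.54 or below in every activated one, whereas the other 3 pairs show overlap in at least 1 haplotype. The values of 0 belong to the shallowest library, in which Timm17a and Timm17b had no count and Dnajc19 and Dnajc15 the same count.

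Promoter sequences of the members were read from GRCm39 as 250 bases before to 50 bases after the canonical start, and short motifs of factors that are known for mitochondrial or growth genes were searched on both strands. The E-box CACGTG was in 4 of 34 members against 7.81% of all 21770 promoters, the ETS motif CCGGAAGT in 5 members against 4.35%, the NRF1 core CGCATGCG in 2 against 2.59%, and the YY1 motif ATGGCGGC in 2 against 1.94%. Most members held none of these letters in this window, and neither did Dnajc15. The examples below are shown because Tomm7, Timm13, Timm9 and Mtx2 rose in mtDNA-NZB and hold a motif, in capitals, within 30 bases of gene strand sequence.
Tomm7, E-box, chr5:24049143-24049172, minus strand: ccgtaaaggcccCACGTGgcgcatgcgcag
Timm9, E-box, chr12:71183490-71183519, minus strand: cctacattttccCACGTGgtaacgaatctg
Timm13, NRF1 core, chr10:80736978-80737007, minus strand: tttatattgtaCGCATGCGcagcggggagg
Mtx2, ETS motif, chr2:74656120-74656149, plus strand: gggcggagcagCCGGAAGTgccggcgcgcg

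In Tomm7 the letters of the NRF1 core lie in the same window, after the E-box. Samm50 and Tomm20, which were called in neither haplotype, hold a YY1 motif and an E-box, so that motifs occurred in members that passed the test and in members that did not.

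The second question was whether the haplotypes differed in the same state. At rest 0 of 32 members passed the test in either direction, where 2.76% of all genes did. At an unadjusted p below 0.05 were 10 members by edgeR (31.2%, against 20.8% of all genes), 9 of them lower in mtDNA-NZB. DESeq2 also called 0, where 0.719% of all genes with a count were called. It had 11 of 34 at the unadjusted level (32.4%, against 8.79% of these genes, a base that includes genes below the filter on low counts). The log2 difference, mtDNA-NZB over mtDNA-B6, was negative for 24 of 32 members with a median of -0.20, against -0.01 over all genes. Tomm40 came closest at -0.39 ± 0.13 (adjusted p = 0.0946), from 152 to 219 CPM in mtDNA-B6 and from 94.0 to 172 CPM in mtDNA-NZB. It passed at -0.49 (adjusted p = 0.0339) without resting mtDNA-NZB replicate 3. That library was the highest of its group at 172 CPM, so leaving it out widens the difference by itself. Tomm40 was not called with DESeq2, in the second count table, over the 21 libraries or with the library set as a term (adjusted p = 0.156, 0.252, 0.108 and 0.165).

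The next members in that order were Timm44 at -0.31 ± 0.11 (adjusted p = 0.107), Timm8b at -0.33 ± 0.12 and Timm9 at -0.37 ± 0.14 (both adjusted p = 0.126). Tomm7 did not overlap between haplotypes at rest, from 302 to 374 CPM in mtDNA-B6 and from 84.7 to 291 CPM in mtDNA-NZB, and was at -0.34 ± 0.14 (adjusted p = 0.157). Its 84.7 CPM was 5 counts in the shallowest library. Over the 21 libraries Tomm7 still did not overlap and was at -0.22 ± 0.11 (adjusted p = 0.236). The share of all genes without overlap was not counted. Tomm34 went the other way at 0.41 ± 0.16 (adjusted p = 0.146). Over the 21 libraries 8 members were at an unadjusted p below 0.05 (25.0%, against 21.9% of all genes) and 0 were called, where 6.11% of all genes were. With the library set as a term 6 were at that level (18.8%, against 16.3%) and 0 were called.

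After activation 0 of 32 members passed, and the same was so of all genes (0.0%). At an unadjusted p below 0.05 were 4 members, Mtx1, Tomm34, Timm10b and Timm13, all higher in mtDNA-NZB (12.5%, against 3.09% of all genes). DESeq2 called 0, with 2 of 34 members at that level (5.88%, against 1.41% of all genes with a count). The log2 difference was positive for 23 of 32 members with a median of 0.13. Mtx1 ranged from 57.0 to 75.8 CPM in mtDNA-B6 and from 63.2 to 114 CPM in mtDNA-NZB (0.37 ± 0.15, adjusted p = 1.0), and Tomm34 was at 0.36 ± 0.16 (adjusted p = 1.0).

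**Figure D4:**
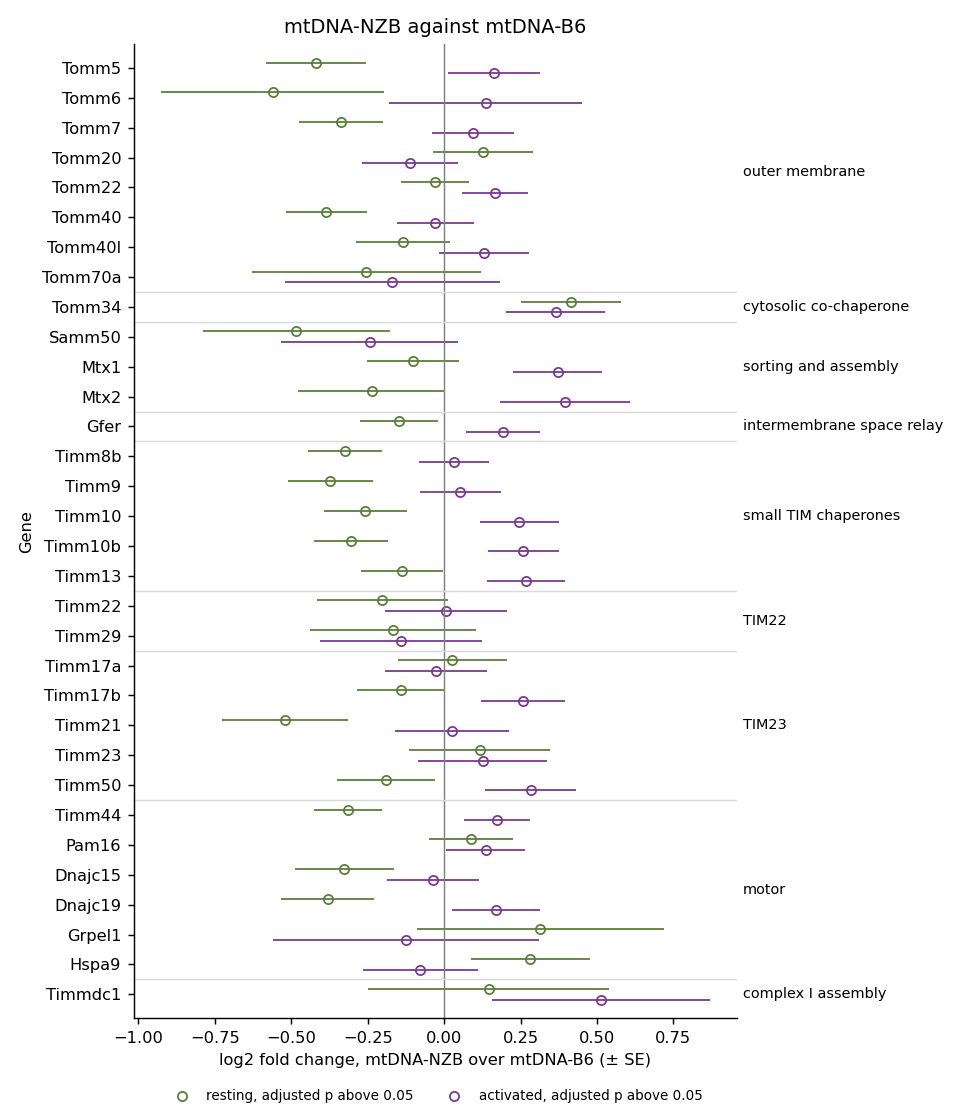
log2 fold change of the 32 tested import genes, mtDNA-NZB over mtDNA-B6, in resting (green) and activated (purple) libraries, with bars for 1 SE. All points are open because none reached an adjusted p of 0.05. Most resting values lie left of 0, with a median of -0.20, and most activated values right of it, with a median of 0.13.

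The third question was whether the response to activation differed between haplotypes. The interaction term, the response of mtDNA-NZB minus that of mtDNA-B6, was called for 0 of 32 members and for 0.0% of all genes. It was positive for 27 of 32 members with a median of 0.36, against 0.02 over all genes, and at an unadjusted p below 0.05 for 11 members (34.4%, against 14.3% of all genes), all of them positive. DESeq2 called 0 members, with 12 of 34 at that level (35.3%, against 5.98% of all genes with a count). That base includes genes below the filter on low counts, unlike that of the 14.3%. The counts of 10 and 22 rises above are therefore not a tested difference between haplotypes. This term contains the resting and activated values just given, so its median is not an independent measurement.

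All 5 tested small TIM chaperones were among these 11, at 0.56 ± 0.17 for Timm10b (adjusted p = 0.207), 0.50 ± 0.19 for Timm10, 0.43 ± 0.19 for Timm9, 0.41 ± 0.18 for Timm13 and 0.36 ± 0.17 for Timm8b. Timm44 of the motor was at 0.49 ± 0.15 (adjusted p = 0.210) and Dnajc19 at 0.55 ± 0.21 (adjusted p = 0.244). Dnajc15, the member with the largest response, was at 0.29 ± 0.22 (adjusted p = 0.572). The number of members at an unadjusted p below 0.05 depended on the fit. It was 15 over the 21 libraries (46.9%, against 18.7% of all genes), 6 with the library set as a term (18.8%, against 11.0%) and 2 with a replicate block by label number (6.25%, against 5.65%), namely Timm44 and Timm10b. Over the 21 libraries 0 members were called at an adjusted p of at most 0.05, where 1.04% of all genes were.

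A further 42 genes of import and processing were examined as neighbours of this machinery, of which 36 could be tested. On activation 12 rose and 3 fell in mtDNA-B6, and 16 rose and 2 fell in mtDNA-NZB, with medians of 0.11 and 0.33. Of all genes, as above, 22.4% rose and 24.5% fell in mtDNA-B6, and 25.2% and 28.4% in mtDNA-NZB. Mtch1, a relative of the outer membrane insertase Mtch2, had the largest rise called in both haplotypes, at 1.26 ± 0.11 (adjusted p = 2.99e-09) and 1.75 ± 0.12 (adjusted p = 2.26e-11). Mtch2 itself rose by 0.71 ± 0.12 and 0.93 ± 0.13, and Stip1, a co-chaperone that joins Hsp70 to Hsp90 in the cytosol, by 0.60 ± 0.15 and 0.86 ± 0.16. Grpel2, the relative of Grpel1, was the only one that fell in both, by 0.66 and 0.65 on the log2 scale (-0.66 ± 0.17 and -0.65 ± 0.19). With the library set as a term 6 of the 36 rose and 1 fell in mtDNA-B6, where 16.3% of all genes rose and 17.1% fell.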

How the data were processed

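RNA of Tconv CD4+ cells was measured by bulk MARS-seq in 24 libraries, grouped by the labels. By the study's methods and the submitters' processing notes, the authors trimmed reads with cutadapt, mapped them with STAR to 3′ regions of GRCm39 genes, counted them with HTSeq and deduplicated and corrected UMIs. The authors deposited these unscaled UMI counts, used here, and a second table of larger counts, used as an alternative. Strand in counting was not given in the sources used here. The last 1000 bases of 19 members overlap another annotated gene, of 15 a protein-coding one and of 4 a gene on the same strand. Reads of the latter, and of all 19 if strand was ignored, may be shared. A column that matched no sample (1 in the second table) was not used. Total counts per library set the precision.

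edgeR 4.0.16 in R 4.3.3 was used (TMM, filterByExpr, 4 groups fitted together, quasi-likelihood test, Benjamini-Hochberg over all genes tested, call at an adjusted p of at most 0.05), tested on simulated data. The SE is the size of the log2 fold change divided by the square root of F. CPM carries the TMM factor. Pairs were tested as log2 CPM (prior count 2). The alternatives included DESeq2 1.42.0, other filters and scaling, 12 or 21 libraries, the library set, replicate blocks, a fold cut-off and leaving out each library. Named genes were the members called with a log2 change of at least 1, those that fell, the pairs, and those called between haplotypes, with the rest in shorter form, and the 3 largest rises and falls of the further list called in both haplotypes. Members and lists were chosen with earlier results of these data known.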

Additional observations from a re-analysis of the deposited data

Results flagged for a closer look

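In groups of 6 libraries, the highest or lowest library stood apart from the rest by Dixon's ratio, at its 95% critical value, in 20 of 140 groups examined, where chance flags about 1 in 20 groups. The shallowest library, resting mtDNA-NZB replicate 2, was behind 10 of these. It was the highest of its group for Samm50, Timmdc1, Timm50 and Grpel1, at 16.9, 16.9, 84.7 and 33.9 CPM, of which 16.9 CPM is a single count. It was the lowest for Tomm7 at 84.7 CPM, for the summed CPM of all members at 1355, and for Timm17a, Timm17b, Timm21 and Pam16, which are listed at 0.

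The other 10 were spread over both haplotypes and states. In activated mtDNA-B6, replicate 5 was high for the summed CPM of all members at 2709, Tomm7 was low in replicate 6 at 333.6 CPM and Chchd4 was low in replicate 3 at 0.331 CPM. In resting mtDNA-B6, replicate 6 was low for Gfer at 44.0 CPM and high for Timm23 at 24.1 CPM, and replicate 5 was high for Timm13 at 173 CPM. In activated mtDNA-NZB, replicate 1 was low for Tomm20 and Timm21, at 5.75 CPM in both, replicate 5 was high for Tomm6 at 4.95 CPM, and replicate 6 was low for Tomm34 at 45.0 CPM.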

How the results depend on the processing

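Every call of Dnajc15, Pam16, Timm50, Timm8b and Tomm22 in mtDNA-B6 (5 of 10 rises), and of Dnajc15, Gfer, Mtx2, Pam16, Timm13, Timm17b, Timm50, Timm8b, Tomm22, Tomm40, Tomm5 and Tomm7 in mtDNA-NZB (12 of 22 rises), held in all 12 other settings and without each of the 24 libraries in turn. The count of members that rose ranged without 1 library from 8 to 12 in mtDNA-B6 and from 18 to 23 in mtDNA-NZB. Of the 24 fits without 1 library, Hspa9, Timm13 and Timm23 were called in 20, 18 and 23 in mtDNA-B6, and Mtx1, Timm10, Timm22, Timm23, Timm9 and Tomm6 in 8, 19, 23, 22, 19 and 15 in mtDNA-NZB. Timm13 was lost without replicate 1, 2 or 4 of resting or 4, 5 or 6 of activated mtDNA-B6, and Timm9 and Timm10 without replicate 4, 5 or 6 of resting or 5 of activated mtDNA-NZB, and also without activated replicate 2 (Timm9) or 1 (Timm10). With a fold cut-off 1 and 2 members rose, against 7.06% and 9.46% of all genes. With it 0 members fell, where 1122 and 1474 of 10566 genes did. DESeq2 called 8 and 16, where 8.55% and 9.67% of all genes with a count rose. The 21 libraries gave 12 and 21, against 23.8% and 24.5% of all genes.

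The count that fell in mtDNA-B6 was 0 with the library set as a term, also over the 21 libraries. In mtDNA-NZB without 1 library 1 to 2 fell, where the second was Grpel1 (without replicate 3 of resting mtDNA-B6, or in mtDNA-NZB without replicate 6 at rest or either of the activated replicates 2 and 4). The members lower in mtDNA-NZB at rest were 0 to 1 without 1 library, the 1 being Tomm40. The cause of these shifts was not tested.

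Resting and activated libraries of a haplotype share numbers in their labels, which are not said to mark a mouse. The correlation of same-numbered libraries was above 0.1 in only 3 of 9 pairs, and only libraries 13 and 14 of mtDNA-B6 correlated best with their own number. With a replicate block by label number 9 members rose in mtDNA-B6 and 15 in mtDNA-NZB, and 0 fell in mtDNA-NZB, also over the 21 libraries (12 and 16 rose). Of all genes, 19.4% and 19.0% rose with that block, and 22.7% and 19.6% over the 21 libraries. In mtDNA-NZB 20.1% and 20.6% of all genes fell (24 and 21 libraries). By title number 10 and 19 members rose, against 21.7% and 24.2% of all genes. The fits with the library set or the label block over 21 libraries were chosen after seeing the data.

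Among the further import genes, in mtDNA-B6 the rises were 6 with the library set as a term, 5 with it over the 21 libraries and 1 with a fold cut-off, and the falls 1, 1 and 0, and 1 in the second table. In mtDNA-NZB the fold cut-off left 2 rises and 1 fall, 1 fell in the second table, with the library set (24 or 21 libraries) and with the label block, 0 with the block over the 21 libraries, and 1 to 2 without 1 library. Of all genes 9.46% rose and 1474 of 10566 fell with the cut-off, and 23.7% fell in the second table. With the set 26.6% and 28.0% fell, and with the block 20.1% and 20.6% (24 and 21 libraries).

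The shift of Timm17a to Timm17b in mtDNA-NZB was -0.36 over the 21 libraries and -0.37 without its resting replicate 2, and was called in the second table (-0.64, exact permutation test, adjusted p = 0.0312), and without 1 library it ranged from -0.72 to -0.37 and was called without resting replicate 4 or activated replicate 2. That of Timm8a1 to Timm8b in mtDNA-B6 was called in the second table (-0.82, exact permutation test, adjusted p = 0.0173), and without 1 library it ranged from -0.75 to -0.50 and was called without resting replicate 3 or activated replicate 4.

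Only uncalled members turned sign. In mtDNA-B6 these were Timmdc1 (-0.155 with the set over the 21 libraries), Timm9 (0.00558 with the set), Tomm70a (-0.0200) and Timm10b (0.0452) in the second table. Without 1 library Tomm40l ranged from -0.0186 to 0.117, Timm9 from -0.119 to 0.0196, Samm50 from -0.284 to 0.0147 and Tomm70a from -0.102 to 0.170. In mtDNA-NZB they were Samm50 (-0.372 in the second table, -0.000606 with the set, -0.283 with the label block and -0.285 with it over the 21 libraries), Tomm70a (-0.0168 with the set, -0.0967 with it and -0.0448 with the block over the 21 libraries), Timm29 (0.0670 and 0.381 with the label block, 24 and 21 libraries), Timm17a (-0.0188 with the label block) and Tomm20 (0.0246 in the second table). Without 1 library Samm50 ranged from -0.0562 to 0.199, Tomm70a from -0.0911 to 0.374 and Tomm20 from -0.107 to 0.0281.

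Members with few counts limit the result. Of the 34, 7 had under 300 counts over all libraries, and 2 of these could not be tested. The SEs of the other 5 were 0.27 to 0.44 on the log2 scale, so a change of the size of that in Tomm22 (0.36 and 0.55) was not detectable in them at this depth.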
